A study of Mus musculus with 6 samples.

Results

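Enteroendocrine transcription factors are the regulators that turn a dividing crypt cell into a hormone-secreting cell of the gut. A list of 9 such genes was followed in mouse colon: Neurog3, Neurod1, Insm1, Pax4, Pax6, Nkx2-2, Isl1, Rfx6 and Fev. A gene was taken from the probe sets annotated to it alone, and where several exist the one with the highest mean signal on the 6 arrays was used. By this rule 7 of the 9 genes were measured, among 18193 genes in all, and Rfx6 and Fev had 0 probe sets in the annotation used here. The tissue came from untreated female mice of the strain C57BL/6J. There were 3 arrays of proximal colon and 3 of distal colon, and the design text says that 3 animals gave tissue of both regions, without saying which numbers share an animal. The labels give no age, allele or agent, and each array holds total RNA of homogenised colon tissue. Values are log2 expression, so a difference of 1 is a doubling.

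In the intestine, endocrine cells are a rare secretory lineage scattered through the epithelium. Cells that escape Notch signalling can start to make Neurog3, a basic helix-loop-helix factor that is switched on briefly in the endocrine progenitor and without which these cells do not form. Neurog3 is followed by a layer of later factors, among them Neurod1, Insm1, Pax4, Pax6, Nkx2-2 and Isl1. Several of these stay on for longer, and several steer cells towards particular hormones. Most of the same factors also build the islets of the pancreas.

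Of the 7 measured genes, Isl1 and Nkx2-2 are those whose levels separated the libraries, so the stretch before the start of each is shown, from the RefSeq promoter table of the build GRCm38.p6. Isl1 lies on chromosome 13, and the 250 bases before its start are chr13:116309689-116309938 on the minus strand. Nkx2-2 lies on chromosome 2, and its window is chr2:147186403-147186652 on the minus strand, inside the span annotated for the gene, which reaches further upstream. Capitals mark CAGATG or its reverse complement CATCTG, an E-box of the kind that Neurog3 and Neurod1 bind.
Isl1: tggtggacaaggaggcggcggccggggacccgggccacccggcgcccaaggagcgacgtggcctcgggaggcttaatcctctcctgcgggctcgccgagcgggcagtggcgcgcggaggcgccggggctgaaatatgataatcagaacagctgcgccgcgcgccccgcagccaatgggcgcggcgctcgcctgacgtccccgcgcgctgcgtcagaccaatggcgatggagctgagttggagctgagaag
Nkx2-2: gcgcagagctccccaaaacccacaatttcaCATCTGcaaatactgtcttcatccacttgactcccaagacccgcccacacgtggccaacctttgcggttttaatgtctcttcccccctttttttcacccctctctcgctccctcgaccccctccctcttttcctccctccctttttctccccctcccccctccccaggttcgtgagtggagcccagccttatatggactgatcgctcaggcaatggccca
The Nkx2-2 window holds 1 such E-box, which begins 220 bases before the start, and the Isl1 window holds 0. The table has windows for 7 of the 9 listed genes, 8 windows in all, and the other 7 windows hold 0. CAGATG on either strand is present in 14.4% of the 32851 windows of this length in the table. CTAATG, a site of the kind that Isl1 binds, was searched on both strands too and is present in 0 of the 8 windows and in 6.36% of all. The Isl1 window is 71.2% G and C and the Nkx2-2 window 56.4%. These matches describe letters only, and binding was not measured.

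A pair of libraries goes against its labels and is reported first, since it touches every comparison. When the libraries labelled proximal 1 and distal 3 were left out, limma called 3494 of the 18193 genes at an adjusted p of 0.05. In 75.6% of these genes the value of the library labelled proximal 1 was closer to the mean of the distal pair, and in 90.2% that of the library labelled distal 3 was closer to the mean of the proximal pair. Results are therefore given with all 6 libraries as labelled and again with the 4 others, and no library was moved to another group. The 4-library values were computed after the profiles were known, so their p-values overstate the evidence and describe 2 libraries a label. A second pattern cuts across the labels. Digestive enzymes of pancreatic acinar cells were high in the libraries labelled proximal 1 and distal 1, where the mean of 14 acinar markers was 11.92 and 11.73, against 6.81 to 7.50 in the other 4 libraries. Colon epithelium was well represented throughout, with Epcam, an epithelial adhesion protein, at 14.14 to 14.31 and Slc26a3, the chloride exchanger of surface colonocytes, at 14.04 to 14.29. The array medians ran from 7.90 to 8.02, and with so few arrays their number sets the precision.

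Neurog3, which starts the endocrine programme, was at the bottom of the range. It measured 5.74, 5.90 and 5.93 in the libraries labelled proximal 1, 2 and 3. In those labelled distal 1, 2 and 3 it measured 6.31, 5.55 and 6.24. The groups overlap, and all 6 values lie below 6.54, a level that the lowest 25% of gene values on the arrays do not reach and near which background can hide a change. Distal minus proximal was 0.18 (SE 0.22, limma adjusted p = 0.847), with a 95% interval from -0.34 to 0.70. A second probe set of Neurog3 pointed the other way, with a difference of -0.36.

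Neurod1, the basic helix-loop-helix factor that acts after Neurog3, measured 8.63, 8.76 and 9.14 in the proximal libraries. It measured 8.40, 8.73 and 8.71 in the distal libraries. The lowest value was that of distal 1 and the highest that of proximal 3, and the groups overlap. The difference was -0.23 (SE 0.17, limma adjusted p = 0.824), with a 95% interval from -0.64 to 0.18. Its second probe set had nearly the same difference, -0.25.

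Insm1, a zinc finger repressor that is a general mark of endocrine cells, varied little. It measured 7.61, 7.15 and 7.46 in the libraries labelled proximal 1, 2 and 3. In those labelled distal 1, 2 and 3 it measured 7.50, 7.28 and 7.17. The groups overlap over a span of 0.46, and the highest values were those of proximal 1 and distal 1, the libraries with high acinar markers, whose part in the order was not tested. The difference was -0.09 (SE 0.16, limma adjusted p = 0.882), with a 95% interval from -0.47 to 0.29. A second probe set of Insm1 did not repeat this order. It was highest in proximal 2 and distal 1, at 6.18 in both, while proximal 1 gave 6.07. Its difference was -0.01, and all its values lie below 6.54.

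Pax4, a paired-box factor needed for serotonin and somatostatin cells, was the single gene of the 7 whose labelled groups did not overlap. It measured 7.74, 7.82 and 7.65 in the proximal libraries and 8.11, 8.11 and 7.89 in the distal libraries. All 3 distal values were above all 3 proximal values, by a small margin. The difference was 0.30 (SE 0.11), with a 95% interval from 0.03 to 0.57 and an unadjusted p of 0.0332, and the limma adjusted p was 0.824. Of all genes 7.33% had groups that did not overlap, so 1 of 7 is read against that share. Pax4 has 1 probe set.

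Pax6, a paired-box factor that activates the proglucagon gene, measured 6.67, 6.45 and 6.38 in the libraries labelled proximal 1, 2 and 3. It measured 6.44, 7.11 and 6.30 in those labelled distal 1, 2 and 3. The library labelled distal 2 stood highest, the groups overlap, and 4 of the 6 values lie below 6.54. The difference was 0.12 (SE 0.23, limma adjusted p = 0.891). Without the library labelled distal 2 it was -0.13. Pax6 has 5 probe sets with differences between -0.18 and 0.12, and their mean per library gave 0.00.

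Nkx2-2, a homeodomain factor of endocrine specification, fell into a high and a low set of libraries. The library labelled proximal 1 gave 8.09, while proximal 2 gave 6.83 and proximal 3 gave 6.97. The library labelled distal 1 gave 8.27 and distal 2 gave 7.88, while distal 3 gave 7.06. The high values were those of proximal 1, distal 1 and distal 2, so the labelled groups overlap. As labelled the difference was 0.44 (SE 0.43, limma adjusted p = 0.826), with a 95% interval from -0.61 to 1.49.

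Isl1, a LIM homeodomain factor that keeps endocrine cells differentiated and activates hormone genes, had the widest span of the 7 genes, 2.70 log2 units. The library labelled proximal 1 gave 10.44, while proximal 2 gave 8.19 and proximal 3 gave 8.10. The library labelled distal 1 gave 10.55 and distal 2 gave 10.02, while distal 3 gave 7.85. The same 3 libraries were high as for Nkx2-2, and no value lies between 8.19 and 10.02. As labelled the mean was 9.47 ± 1.43 (SD, n = 3) for distal libraries, beside 8.91 ± 1.33 (SD, n = 3) for proximal ones. That difference of 0.56 (SE 0.90, limma adjusted p = 0.870) is smaller than the spread within either group, and its 95% interval runs from -1.61 to 2.73.

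**Figure D1:**
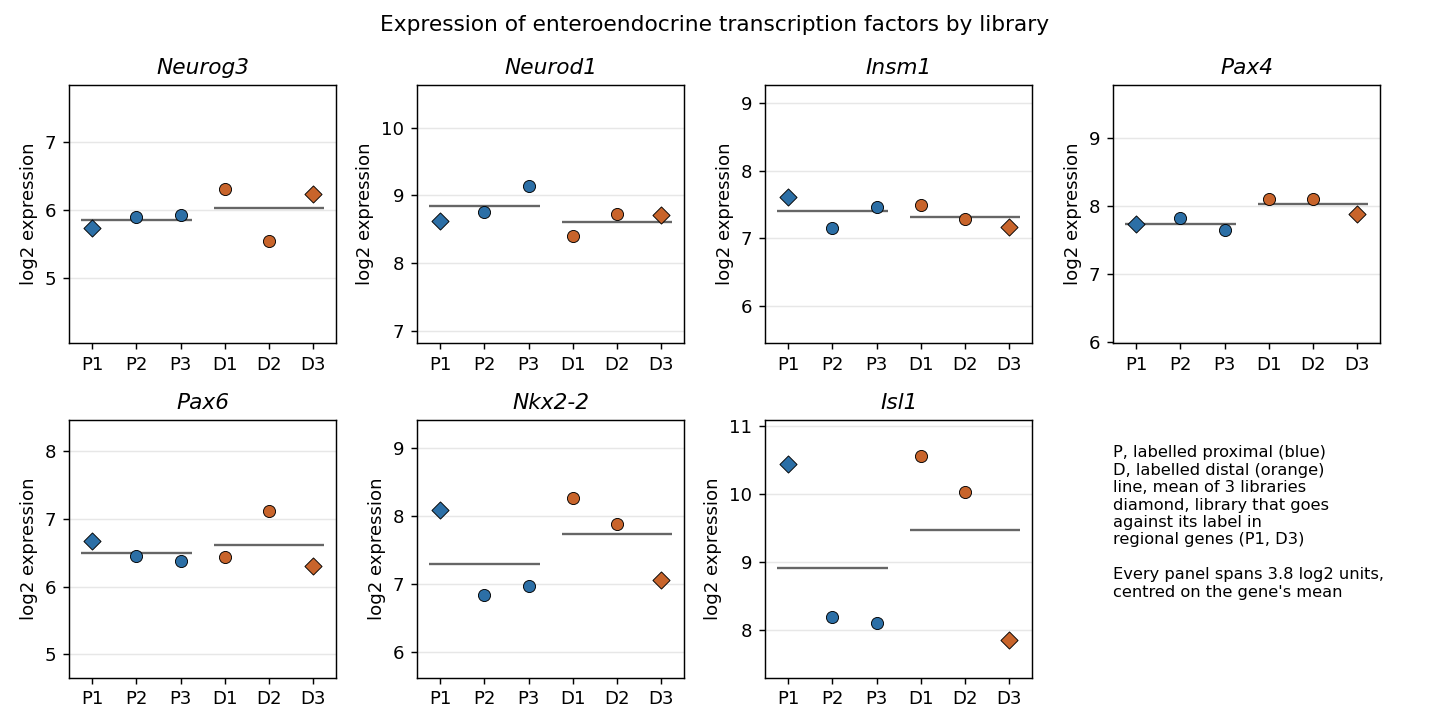
Log2 expression of the 7 measured genes in each library, with the mean of each labelled group as a line and all panels on a span of equal size. Isl1 and Nkx2-2 are high in the libraries labelled proximal 1, distal 1 and distal 2, while the other 5 genes span at most 0.81 log2 units.

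As labelled, then, 0 of the 7 genes passed limma at an adjusted p of 0.05, as 0 of all 18193 genes did (0%). Without adjustment, 554 genes had p under 0.05, and Pax4 was the 1 gene of the 7 among them. The 7 differences had a median of 0.18, beside -0.02 for all genes, with 5 above 0 and 2 below. With array weights, which count discordant arrays less, 3 of the 7 passed, namely Isl1 (1.98), Nkx2-2 (1.21) and Pax4 (0.30). In all, 5579 of the 18193 genes were called with these weights. The weights are set from the same arrays that are tested, so these p-values may overstate the evidence as well. The 3 calls are therefore no check that is independent of leaving out the discordant libraries.

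In the 4 libraries, Isl1 was 4.41-fold higher in distal than in proximal colon and Nkx2-2 was 2.26-fold higher. For Isl1 the difference was 2.14 (SE 0.19, limma adjusted p = 0.00308), and its 95% interval corresponds to 3.14- to 6.19-fold. For Nkx2-2 it was 1.17 (SE 0.16, limma adjusted p = 0.00990), with an interval of 1.69- to 3.01-fold. These are 2 of the 7 genes, both higher in distal colon, where 19.2% of all genes passed in either direction and 7.71% were called higher in distal colon. By size of difference Isl1 stood at rank 264 and Nkx2-2 at rank 908 of all genes. Because these are whole pieces of tissue, more cells of a type and more RNA per cell cannot be told apart. Of all 3494 calls 1402 were higher in distal and 2092 in proximal colon, and median centring of the arrays turned this split into 1883 and 1557.

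The other 5 genes did not pass in the 4 libraries. Pax4 came closest, with a difference of 0.37 (SE 0.11, limma adjusted p = 0.0789). Neurod1 was lower in distal colon by value, -0.38 (SE 0.18, limma adjusted p = 0.209), with a 95% interval from -0.85 to 0.08. Pax6 differed by 0.36 (SE 0.23), Insm1 by 0.08 (SE 0.15) and Neurog3 by 0.01 (SE 0.25), with limma adjusted p of 0.333, 0.747 and 0.977. The Pax6 value rested on the library labelled distal 2, without which it was 0.02, and it was 0.69 without distal 1. The pairs did not overlap for 4 of the 7 genes (Isl1, Nkx2-2, Pax4 and Neurod1), beside 62.2% of all genes. The median of the 7 differences was 0.36, beside -0.045 for all genes.

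**Figure D2:**
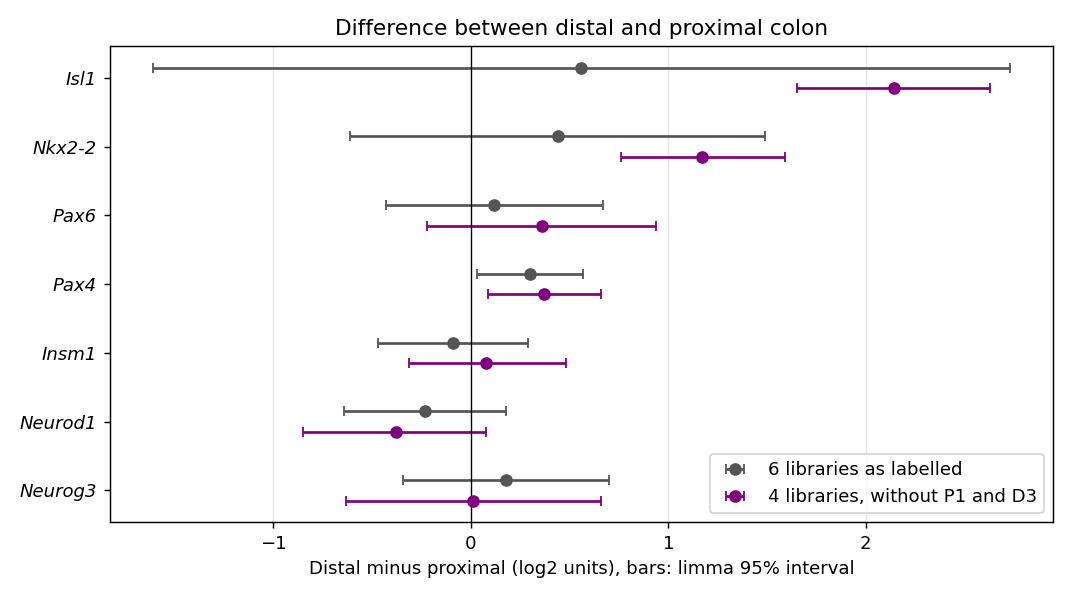
Distal minus proximal difference of each gene in log2 units, with limma 95% intervals, for all 6 libraries as labelled and for the 4 libraries without proximal 1 and distal 3. The Isl1 interval narrows from -1.61 to 2.73 in the first to 1.65 to 2.63 in the second.

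Both calls rest on few libraries. Leaving out 1 of the 4 leaves a fit with 1 residual degree of freedom, and the lone library is assumed to vary like the other pair. The Isl1 difference was then 1.87 without distal 1 (limma adjusted p = 0.0491) and 2.40 without distal 2 (0.0402), but 2.18 without proximal 2 (0.0855) and 2.09 without proximal 3 (0.0983). The Nkx2-2 difference was 0.98 without distal 1 and 1.37 without distal 2, with limma adjusted p of 0.0508 and 0.0550. It was 1.10 without proximal 2 and 1.24 without proximal 3, with limma adjusted p of 0.158 and 0.152.

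The 2 probe sets of Isl1 showed the same order of libraries. The second one measured 8.03, 8.11 and 8.00 in the libraries labelled proximal 1, distal 1 and distal 2, and 6.26, 6.67 and 6.48 in proximal 2, proximal 3 and distal 3. Its 4-library difference was 1.59 (SE 0.17, limma adjusted p = 0.00420 over all probe sets). Nkx2-2 has 1 probe set, so no such comparison exists for it. The probe sets of Neurog3 and Pax6 had no common direction: the second one of Neurog3 gave -0.44 (limma adjusted p = 0.0606), and those of Pax6 ran from -0.29 to 0.36.

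**Figure D3:**
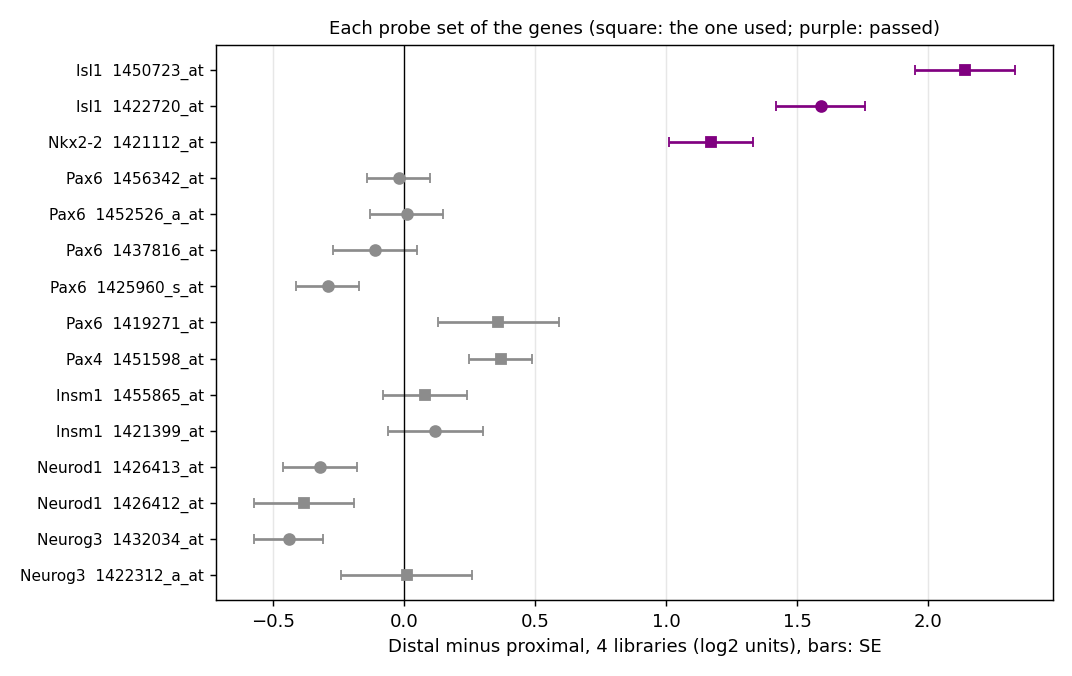
Difference between distal and proximal colon in the 4 libraries for each of the 15 probe sets of the 7 genes, in log2 units with its standard error. Of these, 3 passed, namely both Isl1 probe sets (2.14 and 1.59) and that of Nkx2-2 (1.17).

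Islet cells make Isl1 and Nkx2-2 as well, so pancreatic markers were read beside them. Ins2, which encodes insulin, measured 10.31 and 10.64 in the libraries labelled proximal 1 and distal 1, and 6.64 to 7.02 in the other 4. Cpa1, an acinar carboxypeptidase, measured 12.42 and 12.43 in the same pair and 5.69 to 6.16 elsewhere. The library labelled distal 2 was low in both, with Ins2 at 6.64 and Cpa1 at 5.88, and had Isl1 at 10.02 and Nkx2-2 at 7.88. It was not low in every gene of these lists. Of the 14 acinar markers 3 lay more than 1 log2 unit above the proximal pair in distal 2, namely Pnliprp2 (10.33 against 8.32 and 7.77), Clps (11.59 against 9.69 and 9.67) and Cela1 (13.43 against 12.00 and 12.01), where 13 of the 14 did so in distal 1. Of the 9 islet markers Ppy did so in distal 2, at 9.27 against 7.56 and 7.76. The part of pancreatic RNA in the Isl1 and Nkx2-2 differences was not tested. Set against the proximal pair, distal 2 alone was 1.88 higher in Isl1 and 0.98 higher in Nkx2-2, while proximal 1 was 2.30 and 1.19 higher. Of 9 islet markers 2 passed in the 4 libraries (22.2%, beside 19.2% of all genes), Ppy, which encodes pancreatic polypeptide (1.91, SE 0.22), and G6pc2 (0.89, SE 0.18). G6pc2 lay below 6.54 in every library. Iapp, the islet amyloid peptide, differed by -0.54 (SE 1.43, limma adjusted p = 0.828) and was lowest in distal 2, at 7.00. The mean of the 9 islet markers was 6.85 and 7.14 in proximal 1 and distal 1, and 5.86 to 6.15 in the others. Of 14 acinar markers 3 passed (21.4%, beside 19.2% of all genes), with Pnliprp2 (2.51), Cela1 (1.74) and Clps (2.66) higher in distal colon. The median difference of the 14 was 2.79 and rested on the library labelled distal 1, without which it was -0.12. In the library labelled distal 3, Pnliprp2 measured 12.86 and Clps 12.37, where Cpa1 measured 5.96. Cela1 measured at least 12.00 in every library, so high values of these 3 genes were not confined to libraries with high Cpa1.

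Isl1 is also made by many neurons, and Insm1 by their precursors, so enteric neurons were examined too. Of 23 neuronal markers 5 were higher and 1 lower in distal colon in the 4 libraries, a share of 26.1% beside 19.2% of all genes. Snap25, a synaptic vesicle fusion protein, was higher (1.14, SE 0.20), as was Slc6a4, the serotonin transporter, which epithelial cells make as well (1.43, SE 0.20). Elavl3, a neuronal RNA-binding protein, was higher (0.90, SE 0.16), and Nefl, a neurofilament subunit, was lower (-1.28, SE 0.16). Chat, counted among the 5 (0.52, SE 0.11), lay below 6.54 in every library. Vip and Uchl1, both abundant in the plexus, differed by 0.11 (SE 0.12) and 0.22 (SE 0.17) and did not pass. The mean of the 23 markers was 8.24 and 8.03 in the proximal pair, 8.33 and 8.43 in the distal pair, 8.36 in proximal 1 and 8.21 in distal 3. The part of neurons in the Isl1 difference was not tested.

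Of 13 markers of smooth muscle and interstitial cells 2 passed (15.4%, beside 19.2% of all genes), the chloride channel Ano1 (1.70, SE 0.11), which epithelium makes too, and desmin, Des (0.62, SE 0.14). Acta2, Tagln and Mylk, all abundant in smooth muscle, differed by 0.27 (SE 0.11), 0.36 (SE 0.12) and 0.05 (SE 0.14) and did not pass. Of 13 epithelial markers Car4 was higher in distal colon (0.60), and Krt20 (-0.49) and Car1 (-0.54) were lower, a share of 23.1% near the 19.2% of all genes.

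Other factors of the secretory and endocrine lineage moved in both directions. Of 24 listed, 21 were measured, 0 passed as labelled, and 4 were higher and 3 lower in distal colon in the 4 libraries, a share of 33.3% beside 19.2% of all genes, with a median difference of 0.04. Higher were St18 (0.92, SE 0.12) and Myt1 (0.67, SE 0.14), related zinc finger factors of endocrine precursors, as well as the corepressor Runx1t1 (0.96, SE 0.17) and the forkhead factor Foxa2 (0.82, SE 0.15). Foxa2 measured 10.26, 10.19 and 9.97 in proximal 1, distal 1 and distal 2, and 9.13, 9.39 and 9.44 in proximal 2, proximal 3 and distal 3, the split seen for Isl1. St18 showed it as well, with 8.88, 8.32 and 8.51 against 7.53, 7.47 and 7.93. Lower in distal colon were Cdx2, the homeobox gene of intestinal identity (-0.88, SE 0.16), Mnx1 (-0.61) and Tox3 (-0.56). Mnx1 lay below 6.54 in every library.

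Atoh1, Gfi1, Sox4 and genes of the Notch pathway were also examined. Atoh1, which commits cells to the secretory lineage, measured 11.24 to 11.49 in the proximal and 10.89 to 11.69 in the distal libraries, and differed by -0.17 (SE 0.15, limma adjusted p = 0.465) in the 4 libraries. Gfi1, a repressor that acts after Atoh1, differed by 0.52 (SE 0.25, limma adjusted p = 0.212) and Sox4 by -0.32 (SE 0.23, limma adjusted p = 0.387). Of 16 Notch pathway genes 1 passed, or 6.25%, below the 19.2% of all genes. This was Hes6, a helix-loop-helix factor that opposes Hes1, at 13.13, 13.14 and 13.05 in proximal 1, distal 1 and distal 2, and 12.17, 12.12 and 12.35 in proximal 2, proximal 3 and distal 3. Its difference was 0.95 (SE 0.11, limma adjusted p = 0.00555). Hes1, the Notch target that represses secretory genes, did not pass (-0.43, SE 0.11, limma adjusted p = 0.0563).

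The products of endocrine cells were mixed as well. Of 15 hormone and amine genes 3 were higher and 3 lower in distal colon in the 4 libraries, a share of 40.0% beside 19.2% of all genes, with a median difference of -0.18. Insl5, an insulin-like peptide of colonic endocrine cells (5.78, SE 0.17), and Pyy, the peptide YY of the same cells (1.11, SE 0.13), were high in the 3 libraries that were high in Isl1. Tac1, which encodes substance P, was higher too (0.47), and homogenised tissue does not show which cells made it. Nts, neurotensin (-6.88, SE 0.18), Sct, secretin (-3.73, SE 0.10), and Cck (-1.04) were lower. Nts measured 5.88 and 5.45 in the distal pair and Cck 6.27 and 6.51, all under the level of 6.54. Background can hide part of a difference there, so both differences may be larger than given, which was not tested. Gcg, the proglucagon gene that Isl1 and Pax6 are known to activate, measured 11.46, 11.54 and 11.78 in proximal and 11.37, 11.12 and 11.50 in distal libraries. Its 4-library difference was -0.42 (SE 0.15, limma adjusted p = 0.112), so Gcg did not pass where Isl1 did. Tph1, the enzyme that makes serotonin in endocrine cells, differed by -0.61 (SE 0.19, limma adjusted p = 0.0778).

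The general marks of endocrine cells Chga and Chgb did not pass. Chga, chromogranin A, measured 10.97 to 11.62 in the proximal and 11.09 to 11.28 in the distal libraries, and Chgb 12.48 to 12.95 and 12.72 to 12.85. In the 4 libraries they differed by -0.34 (SE 0.14, limma adjusted p = 0.165) and -0.03 (SE 0.14, limma adjusted p = 0.904). Of 18 granule and secretion genes 6 passed, or 33.3% beside 19.2% of all genes, and their median difference was 0.16. The 5 that were higher in distal colon included the scaffold gene Rimbp2 (0.90, SE 0.10), the sodium channel Scn3a (0.97, SE 0.12) and Resp18 (0.71, SE 0.12). The 1 that was lower was Pcsk1, the convertase that cuts prohormones (-1.31, SE 0.21). Several of these genes are also made by neurons.

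**Figure D4:**
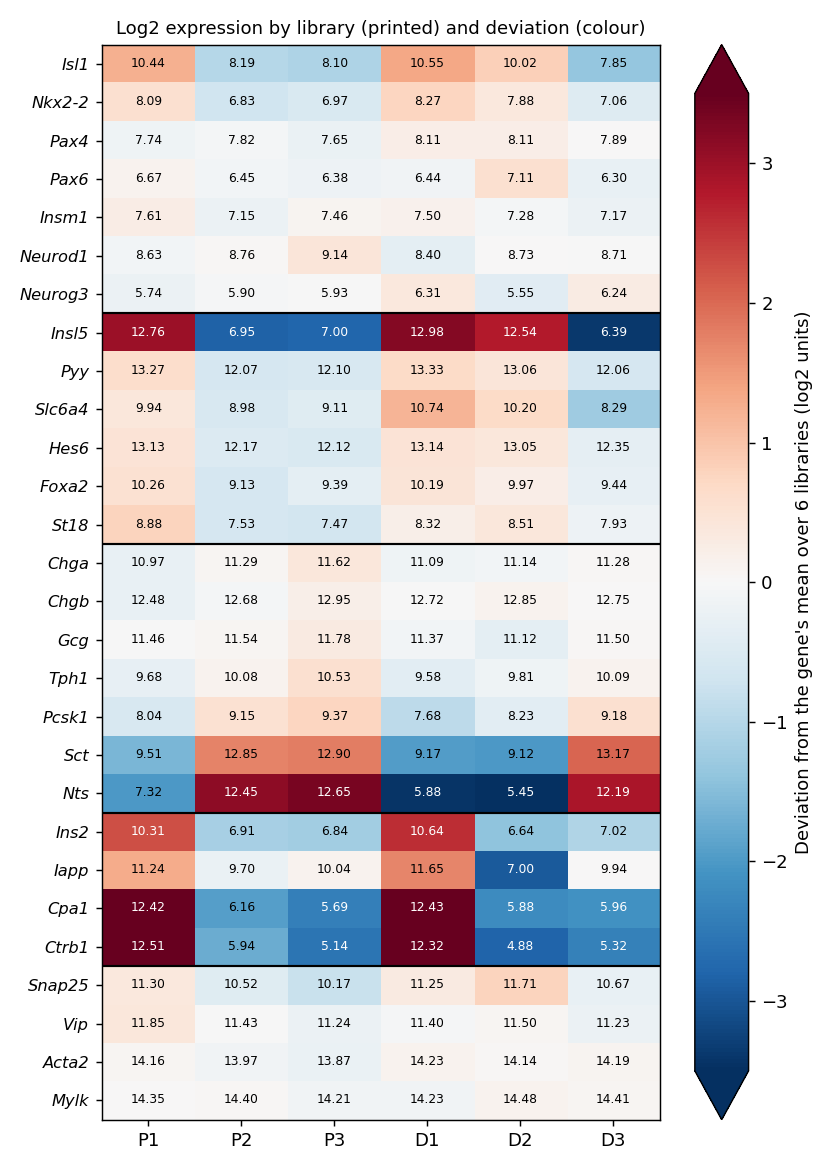
Log2 expression printed for each library (P, labelled proximal; D, labelled distal), coloured by the deviation from the gene's mean over the 6 libraries, for the 7 factors, genes of endocrine cells, and markers of pancreas, neurons and smooth muscle chosen for display. Isl1, Nkx2-2, Insl5, Pyy and Hes6 share the libraries P1, D1 and D2 as their high ones, while Ins2, Cpa1 and Ctrb1 are high in P1 and D1 and low in D2. Ppy and Cela1, pancreatic list genes not drawn, are high in P1, D1 and D2.

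**Figure D5:**
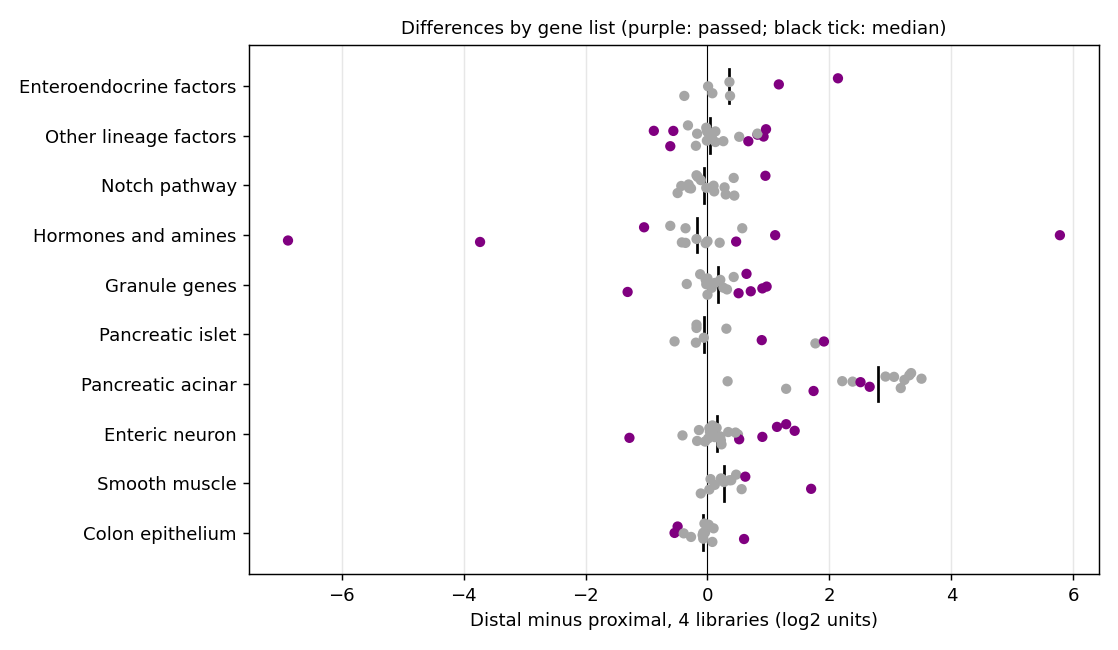
Distal minus proximal difference in the 4 libraries, in log2 units, for every measured gene of each list, with genes that passed limma at an adjusted p of 0.05 in purple and the median of each list as a black tick. The median of the 7 factors is 0.36, that of 16 Notch genes -0.07 and that of 14 acinar markers 2.79, which is -0.12 without the library labelled distal 1.

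The genes whose 6 values followed Isl1 and Nkx2-2 most closely were found among genes spanning at least 1 log2 unit. For Isl1 these were Mcc (Pearson r = 0.9990 over 6 libraries), Cttnbp2 (0.9985) and Hpn (0.9983). Cttnbp2 measured 11.10, 11.09 and 10.68 in proximal 1, distal 1 and distal 2, and 8.81, 8.79 and 8.37 in the others. For Nkx2-2 they were Fkbp9 (r = 0.9995), Vtcn1 (0.9984) and Sycn (0.9969). Of the 2492 genes compared, 237 reached r above 0.95 with Isl1 and 228 with Nkx2-2. These correlations only describe the 6 libraries, and no p-value is given.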

How the data were processed

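Total RNA was measured on 6 single-colour arrays. The deposited log2 values come from RMA in Partek 6.5, per the submitters' processing notes; the background setting is not given in the sources used here. RMA makes arrays nearly alike in distribution, so much of a change common to most genes is hidden. The deposited arrays were not fully alike, with medians from 7.90 to 8.02. In the 4 libraries 1402 genes were called higher in distal and 2092 in proximal colon. After quantile normalization of the deposited values these counts were 1737 and 1718. Of 45101 probe sets 34945 had 1 gene symbol, updated by gene identifier with RefSeq names of GRCm38.p6, and 932 with several and 9160 with none were not named. The probe set with the highest mean represented each of 18193 genes. The contrast of distal with proximal libraries was fitted in R 4.3.3 with limma 3.58.1 (lmFit, eBayes, two-sided, Benjamini-Hochberg over all genes, threshold 0.05), without a block for the replicate number. The titles call the samples of each region biological controls, and p-values cover the spread among these arrays. The labels, which do not say which numbers share an animal, set the groups.

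The 9 genes and the lists were chosen with earlier results of these data known. Genes were named by rule: all members; up to 4 genes per list with the smallest adjusted p; the 3 brightest islet, acinar, neuronal and smooth muscle markers; and the 3 genes most correlated with each member spanning at least 1 log2 unit. Other list genes, such as Chga, Gcg, Tph1, Atoh1, Hes1 and Cpa1, were named for their roles after their values were seen. Alternatives were the replicate block, a filter on low genes, median centring, quantile normalization, the mean of probe sets, single probe sets, array weights, a trended robust prior and leaving out each library. The 4-library fit and its own alternatives were chosen after seeing the data. On simulated data with 18193 genes, limma recovered 53% of 2-fold and 86% of 4-fold changes with 6 libraries, and 42% and 71% with 4. The simulation drew independent noise for each gene and changed 200 genes. It does not hold the discordance of proximal 1 and distal 3 across many genes. These shares therefore do not say what the fit of 6 real libraries could find, nor rank it against the fit of 4.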

Additional observations from a re-analysis of the deposited data

How the results depend on the processing

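As labelled, 0 genes, 0 of the 7 factors and 0 genes of the related lists passed, and these counts stayed at 0 under quantile normalization, median centring, the mean of probe sets, the trended robust prior, the replicate block and each library left out. They became 3494, 2 and 36 without the libraries labelled proximal 1 and distal 3, and 5579, 3 and 45 with array weights. The filter on genes with a mean below 9.31 removed all 7 factors, so it gave no count for them. With the replicate block the Isl1 difference stayed 0.56 (SE 0.41, limma adjusted p = 0.737). The correlations of deviations from the labelled group means for numbers 1, 2 and 3 were 0.68, -0.45 and 0.68. By these, 3 of 6 samples correlated best with their own number. The deviations carry the discordance of proximal 1 and distal 3, so they cannot show which numbers share an animal. The numbers were not taken to pair the samples, since the labels do not say that they do.

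In the 4 libraries, leaving out each library gave 146 to 1633 genes, 0 to 1 of the factors and 3 to 22 related genes. The 36 related genes were 26 higher and 10 lower in distal colon, and 28 and 6 after median centring. Isl1 and Nkx2-2 kept their direction under every alternative run except that filter, which left them out. Insm1 changed sign from -0.09 as labelled to 0.08 without the discordant pair and 0.22 with array weights, and ran from -0.22 to 0.01 as labelled and from -0.07 to 0.24 in the 4 libraries with 1 library left out. Neurog3 changed sign as labelled with the mean of probe sets (-0.09) and its second probe set (-0.36), and in the 4 libraries with the same settings (-0.22 and -0.44) and with 1 library left out (-0.37 to 0.39). Pax6 changed sign with the mean of probe sets (0.00 as labelled, -0.01 in the 4 libraries), with 3 other probe sets (-0.18, -0.02 and -0.02 as labelled, -0.29, -0.11 and -0.02 in the 4 libraries), and ran from -0.13 to 0.28 with 1 library left out as labelled. None of these passed, and the cause was not tested.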
